A study of Homo sapiens with 6 samples.

Results

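HOX genes encode homeodomain transcription factors that lay out the body axis, and 38 of them were examined for TLE3 binding in the human breast cancer line MDA-MB-453. They are the protein-coding genes named HOXA, HOXB, HOXC or HOXD plus a number that were listed for the work, 38 of 20037 protein-coding genes of RefSeq on GRCh38. The rule used no measured value, but earlier results of these data were known when the genes were proposed. All 38 were found in the annotation, 10 each in the HOXA and HOXB clusters and 9 each in HOXC and HOXD. Each cluster was examined from its first to its last listed gene with 100 kb added on both sides. These 4 windows hold 107 of the 72272 regions obtained by merging all peaks that share at least 1 bp.

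The data are chromatin immunoprecipitation and sequencing (ChIP-seq) for TLE3, a Groucho-family corepressor that does not recognise DNA itself and is brought to it by transcription factors. The labels give 2 libraries of MDA-MB-453 cells without FOXA1 silencing (siNS 1 and 2) and 2 with transient silencing of it (siFOXA1 1 and 2). FOXA1 is a forkhead transcription factor of luminal breast epithelium that can open chromatin for other factors. All 4 libraries come from 1 breast epithelial cell line and 1 TLE3 antibody, were fixed with a second cross-linker before formaldehyde, and are called biological replicates. The study's question was whether TLE3 requires FOXA1 to bind. The deposited files are peak lists on hg38 with 45105 and 46586 peaks for siNS 1 and 2 and 12249 and 13754 for siFOXA1 1 and 2 on the chromosomes used. They give no reads, so the depth is unknown, and neither the silencing of FOXA1 nor the expression of any HOX gene or cell marker can be checked in them. The siFOXA1 lists are the shorter ones, and a lower depth and less binding cannot be told apart from these files.

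HOX genes lie in 4 clusters that arose by duplication, and a gene's number gives its place in the cluster. Low numbers act in anterior structures such as the hindbrain, and high numbers in posterior ones such as the limb tips and the urogenital tract. Genes with the same number in different clusters are paralogs. In differentiated cells silent HOX genes are typically held by Polycomb complexes and active ones by the trithorax group, so that one cluster can carry active and silent stretches side by side.

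Of the 26 distinct HOX promoters in the RefSeq table (20 genes, GRCh38.p14, 250 bases before to 50 after a start), 3 were overlapped by a peak of both siNS libraries and none by a siFOXA1 peak. They are the start that HOXC4 and HOXC5 share, HOXD8 and HOXD1. Their 250 bases upstream of the start are shown on the gene's strand, because these are the tabulated HOX promoters with TLE3 peaks of both siNS libraries. All 3 genes lie on the plus strand, and the stretches are chr12:54016638-54016887, chr2:176129455-176129704 and chr2:176188418-176188667. The siNS regions on them run from 54016460 to 54017338, 176129465 to 176130920 and 176188120 to 176189003. Capitals mark matches, on either strand, to a forkhead word (TGTTTAC or TGTTTGC, or else TATTTAC or TATTTGC), the homeodomain word TAATTA, the HES repressor words CACGTG or CACGCG, and the TCF/LEF word CTTTGA.
HOXC4/HOXC5: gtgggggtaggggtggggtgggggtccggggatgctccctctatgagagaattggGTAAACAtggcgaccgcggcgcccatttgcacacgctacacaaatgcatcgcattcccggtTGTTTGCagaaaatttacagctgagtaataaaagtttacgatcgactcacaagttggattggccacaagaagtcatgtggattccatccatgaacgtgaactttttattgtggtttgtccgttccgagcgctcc
HOXD8: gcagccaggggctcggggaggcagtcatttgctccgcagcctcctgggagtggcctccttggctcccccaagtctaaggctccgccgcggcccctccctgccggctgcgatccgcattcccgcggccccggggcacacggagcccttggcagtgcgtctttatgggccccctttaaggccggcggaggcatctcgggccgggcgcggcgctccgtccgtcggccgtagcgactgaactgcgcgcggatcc
HOXD1: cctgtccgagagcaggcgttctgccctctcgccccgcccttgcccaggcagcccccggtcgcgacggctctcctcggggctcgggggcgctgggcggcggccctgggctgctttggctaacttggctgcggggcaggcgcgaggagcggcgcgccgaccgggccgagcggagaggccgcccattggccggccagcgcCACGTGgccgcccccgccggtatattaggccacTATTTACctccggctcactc

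The HOXC4/HOXC5 promoter held the forkhead words TGTTTAC, on the opposite strand at 195 to 189 bases before the start, and TGTTTGC at 134 to 128 bases before it. The HOXD1 promoter held TATTTAC at 20 to 14 bases and CACGTG at 53 to 48 bases before the start. The HOXD8 stretch held none of these words. Over the 300-base promoters, 3 of 26 HOX promoters (11.5%) held a forkhead word, against 12.1% of all 34943 distinct promoters in the table. CACGTG or CACGCG stood in 11 of 26 (42.3%) against 17.4%, TAATTA in 2 (7.69%) against 4.85%, and CTTTGA in 4 (15.4%) against 12.9%. Among the HOX promoters CACGCG stood only in some of HOXA3, and the other matches were CACGTG. Both words contain CpG, in which the HOX promoters were richer than all promoters, and no word share was matched for CpG. The HOX-PBX word TGATTNAT stood in 2 (7.69%) against 2.82%, the AP-2 word GCCNNNGGC in 10 (38.5%) against 23.2%, and the GATA word AGATAA in 2 (7.69%) against 10.4%. HOXA3 contributes 7 of the 26 promoters, and a match in the letters is not a measured site.

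Among the tabulated HOX promoters few had TLE3 peaks. The 26 promoters are 16 of HOXA, 8 of HOXD, 1 of HOXB (HOXB1) and 1 of HOXC (the HOXC4/HOXC5 start), and 18 of the 38 genes, most of HOXB and HOXC, are not among them. The shares that follow therefore leave out most of HOXC, the cluster with the most TLE3. Of genes outside the table, HOXC10, HOXC11 and HOXC13 had a merged region of both siNS libraries over their lower-coordinate end. HOXB9 had such a region over its higher-coordinate end. These are the ends where the genes start if they share the strand of the tabulated HOXC and HOXB promoters, plus and minus. HOXA5, HOXB7, HOXB8, HOXC8 and HOXC12, also outside it, had no peak within 1 kb. A peak of both siNS libraries lay on 3 of 26 HOX promoters (11.5%), against 36.5% of all distinct promoters (36.6% of all 35116 entries, of which 0.678% had a peak of both siFOXA1 libraries). By gene these are HOXC4, HOXC5, HOXD8 and HOXD1, 4 of 20 HOX genes with a promoter in the table (20.0%), against 52.9% of protein-coding genes. The HOX promoters were rich in CpG, with a median of 22.5 CpG per 300 bases against 14 over all promoters. Among promoters with at least 22 CpG, 2 of 14 HOX promoters (14.3%) had a peak of both siNS libraries, against 72.5% of all 13133. These shares were not tested. The HOXA10 start at chromosome 7, 27179812 to 27180111, had a peak of siNS 2 alone and the HOXA13 promoter of siNS 1 alone. The other 21 tabulated HOX promoters, those of HOXA2, HOXA9, HOXB1 and HOXD13 among them, had no peak in any library.

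Taken over gene bodies and 1 kb around them, TLE3 was found in siNS cells at 18 of the 38 HOX genes (47.4%). The measure is a siNS consensus region, that is a merged region with a peak of both siNS libraries. Of all protein-coding genes 63.5% had one, of those no longer than the longest HOX gene 56.9%, and of the 5694 genes of 10 kb or less 44.7%, a background added after the data were seen, since the median HOX gene is 3785.5 bp long against 24115 bp over all genes. The 18 genes were HOXA10 and HOXA11; HOXB2, HOXB3, HOXB4, HOXB6, HOXB9 and HOXB13; HOXC4, HOXC5, HOXC6, HOXC9, HOXC10, HOXC11 and HOXC13; and HOXD1, HOXD8 and HOXD11. HOXA3 and HOXD10 had a peak of each siNS library at different places. Another 7 (HOXA7, HOXA13, HOXB1, HOXB5, HOXD3, HOXD9 and HOXD13) had peaks of 1 siNS library alone, and 11 had no peak at all (HOXA2, HOXA4, HOXA5, HOXA6, HOXA9, HOXB7, HOXB8, HOXC8, HOXC12, HOXD4 and HOXD12). Within 5 kb of the gene the count was 29 (76.3%), above the 66.8% of all genes, so the order of the shares turned with this distance; neighbouring HOX genes then share regions. With all lists cut to the length of the shortest it was 6 (15.8%), against 25.8%.

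After FOXA1 silencing only HOXC genes had a consensus region, 4 of the 38 (10.5%), against 12.9% of all protein-coding genes, 5.01% of those no longer than the longest HOX gene and 2.35% of those of 10 kb or less. A siFOXA1 consensus region holds a peak of both siFOXA1 libraries. The 4 genes were HOXC4, HOXC5, HOXC6 and HOXC13. HOXC4, HOXC5 and HOXC6 overlap from a shared start at 54016888 on chromosome 12, so their regions cannot be assigned to a single gene. These genes are 39143, 18474 and 13936 bp long. Of the 4 only HOXC13 (7714 bp) is 10 kb or less, so the 2.35% is no like background for the others. HOXC9 had a peak of siFOXA1 1 alone. No HOXA, HOXB or HOXD gene had a siFOXA1 peak within 1 kb in either library. With the peaks under the median score of each list set aside the count was 2, and 8.01% of all genes had one.

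**Figure D1:**
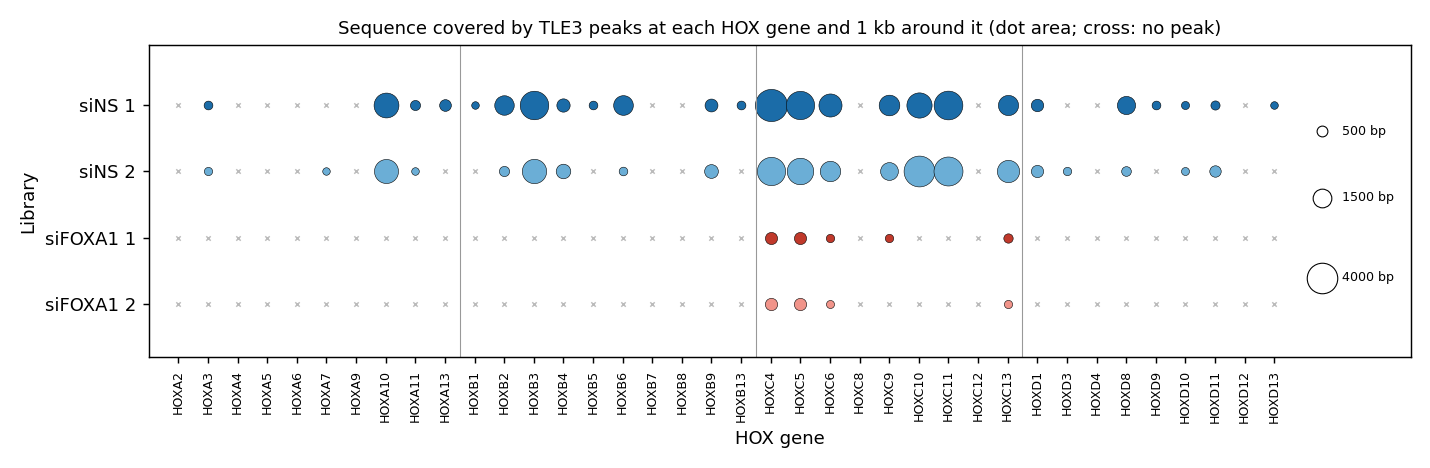
Each column is a HOX gene and each row a library; the dot area gives the base pairs covered by TLE3 peaks over the gene and 1 kb on both sides, and a cross means no peak. Dots of the siFOXA1 libraries appear at HOXC4, HOXC5, HOXC6, HOXC9 (siFOXA1 1) and HOXC13, while siNS dots appear in all 4 clusters.

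By place in the cluster, siNS consensus regions were found at 5 of 11 genes with numbers 1 to 4 (45.5%), at 4 of 11 with numbers 5 to 8 (36.4%) and at 9 of 16 with numbers 9 to 13 (56.2%). In HOXA none of the 6 genes with numbers 2 to 7 had one, and HOXA10 and HOXA11 did. HOXB had regions at 3 of 4 genes numbered 1 to 4 and at 1 of 4 numbered 5 to 8. In HOXC 7 of 9 genes had one (77.8%), in HOXB 6 of 10, in HOXD 3 of 9 and in HOXA 2 of 10. These are counts over few genes that share regions, and no test was made between clusters.

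The 4 windows held many TLE3 peaks in siNS cells and few after FOXA1 silencing. There were 92 peaks in siNS 1, 76 in siNS 2, 11 in siFOXA1 1 and 6 in siFOXA1 2. Both siNS libraries lay far above both siFOXA1 libraries, with 84.0 ± 11.3 peaks against 8.5 ± 3.54 (mean ± SD, n = 2 each), which is 9.88-fold higher. The two-sided exact permutation p over 6 relabelings was 0.333, the smallest that 2 against 2 libraries allow. The sequence covered by peaks was 52.5 kb in siNS 1, 44.2 kb in siNS 2, 3.75 kb in siFOXA1 1 and 3.11 kb in siFOXA1 2. The ratio of the group means, 48.3 ± 5.83 kb against 3.43 ± 0.456 kb, was 14.1, and the exact permutation p was again 0.333. It was 5.73 with lists of equal length and 29.4 without the flanks.

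The HOX windows also made up a smaller share of the siFOXA1 lists than of the siNS lists, which takes their lengths into account. The share was 0.204% of the siNS 1 peaks, 0.163% of siNS 2, 0.0898% of siFOXA1 1 and 0.0436% of siFOXA1 2. The groups did not overlap, and their means were 0.184% ± 0.0289 and 0.0667% ± 0.0327 (n = 2 each), a 2.75-fold difference with exact permutation p = 0.333 (two-sided). This ratio was 4.21 without siFOXA1 1 and 4.54 without the flanks. With the best-scored 12249 peaks of each list, the windows held 21 peaks of siNS 1, 15 of siNS 2, 11 of siFOXA1 1 and 5 of siFOXA1 2, a 2.25-fold difference of the means that again had the groups apart. The 9.88-fold difference in peaks is thus 2.25-fold with lists of equal length. Other loci were lower in siFOXA1 too. The keratin windows held 118 and 103 peaks in siNS 1 and 2, and 19 and 26 in siFOXA1 1 and 2. Peaks of both siNS libraries lay on 36.6% of all promoter entries, and peaks of both siFOXA1 libraries on 0.678%. Consensus regions lay at 63.5% of protein-coding genes in siNS and at 12.9% in siFOXA1, against 47.4 and 10.5% of HOX genes. Whether the HOX windows fell more than other loci was not tested.

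**Figure D2:**
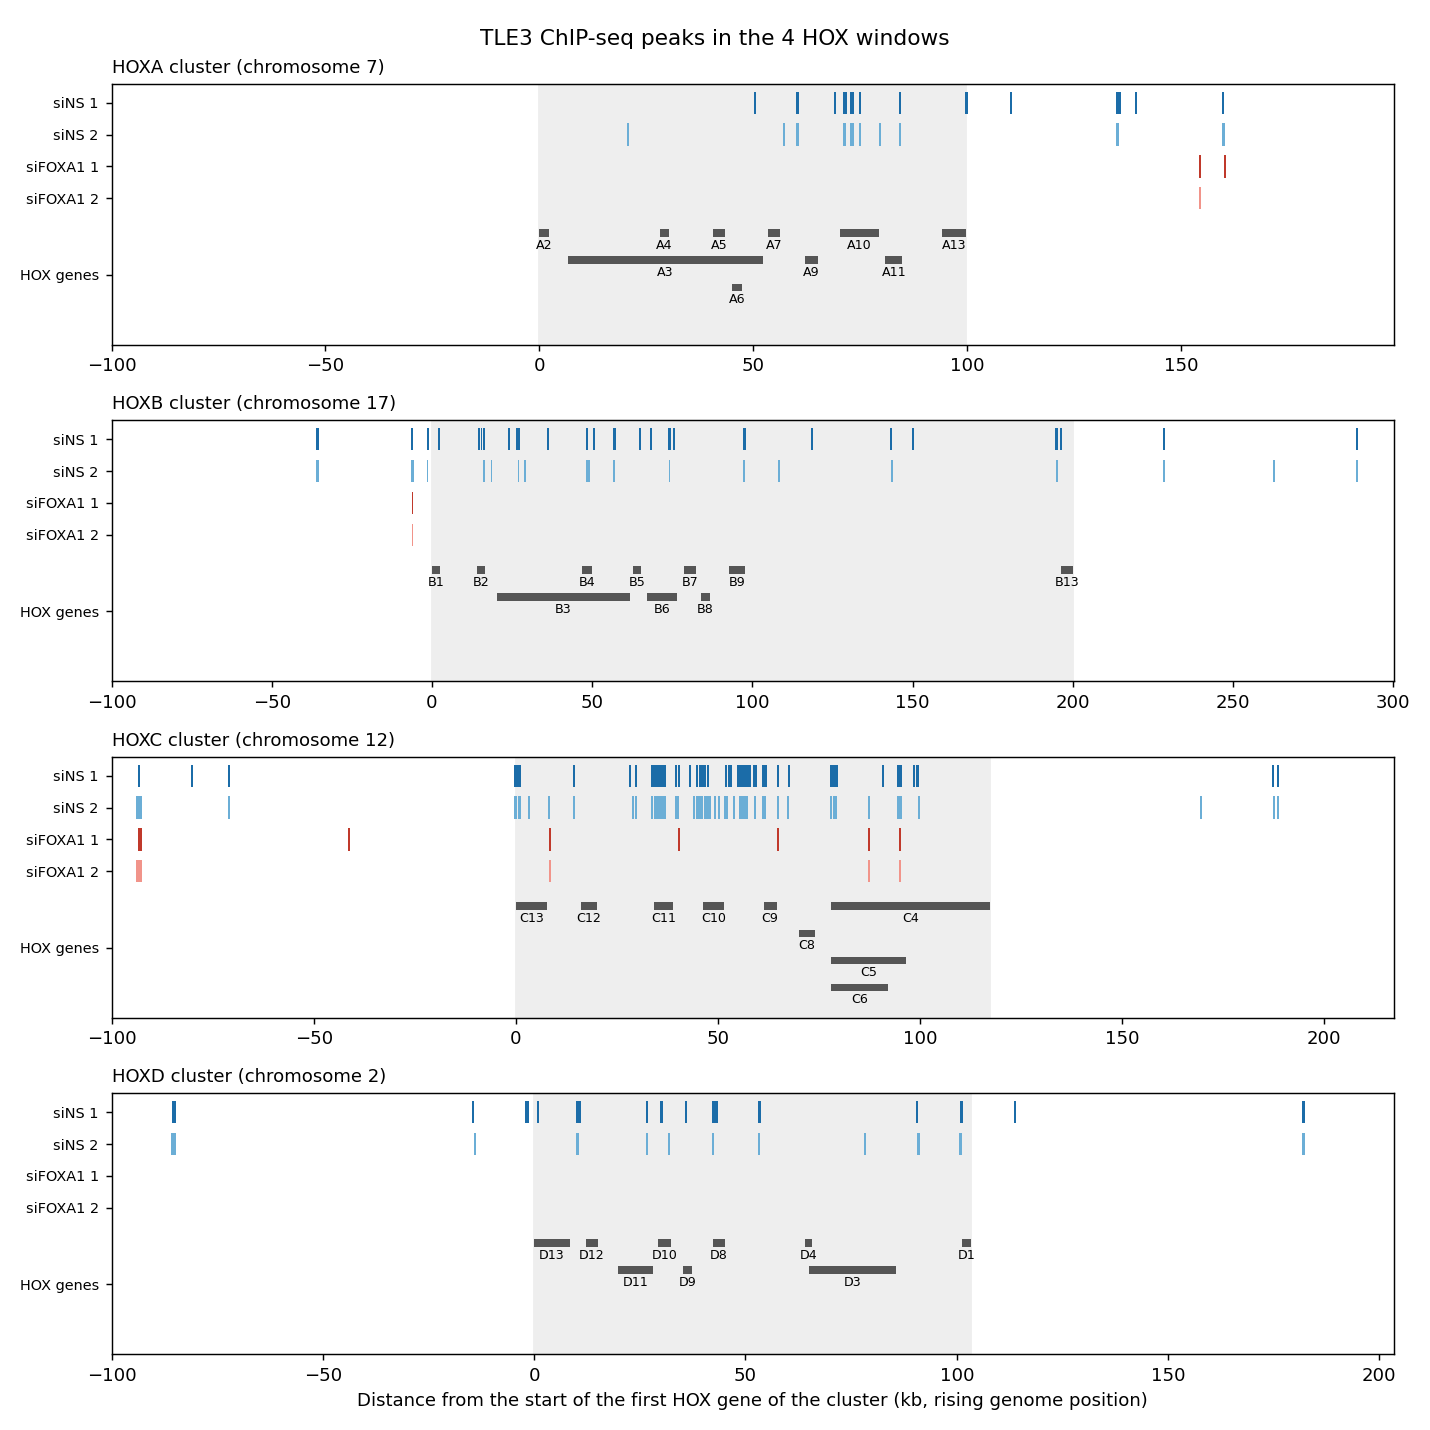
Peaks of each library (coloured bars, drawn at least 0.5 kb wide) and HOX genes (grey bars, the number after the cluster letter) along the 4 windows, as distance in kb from the start of the first HOX gene; shading marks the cluster from its first to its last gene. The siNS peaks crowd inside HOXC, and the siFOXA1 rows hold no peak inside HOXA, HOXB or HOXD.

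Within the windows, siNS peaks were denser inside the clusters than beside them. Between the first and last HOX genes, siNS 1 had 13.6 peaks per 100 kb and siNS 2 had 10.9, against 2.62 and 2.38 in the flanks and 1.49 and 1.54 over all chromosomes. In siFOXA1 1 and 2 the clusters held 0.96 and 0.576 peaks per 100 kb and the flanks 0.75 and 0.375, against 0.404 and 0.454 over all chromosomes. The 2 keratin gene clusters on chromosomes 12 and 17, chosen as gene clusters on chromosomes that also carry HOX genes, held 4.79 and 4.11 peaks per 100 kb in siNS and 0.912 and 1.08 in siFOXA1. The 2 keratin clusters differed, with siNS means of 6.63 peaks per 100 kb on chromosome 12 and 2.68 on chromosome 17. Without HOXC, the HOX clusters held 10.2 in siNS 1 and 6.94 in siNS 2. HOX genes are short and closely packed, and these densities are not adjusted for gene number.

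The HOXC cluster was the most densely covered. Peaks covered 18.3% of its sequence in siNS 1 and 17.5% in siNS 2. The same shares were 4.47 and 3.67% in HOXA, 5.2 and 2.86% in HOXB, and 5.09 and 4.12% in HOXD. Both siNS libraries thus placed HOXC above each other cluster by more than the difference between replicates. In siFOXA1 1 and 2, peaks covered 1.39 and 0.806% of HOXC and nothing in the other 3 clusters. Without HOXC, the 3 other windows held 57 and 40 siNS peaks and 3 and 2 siFOXA1 peaks.

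**Figure D3:**
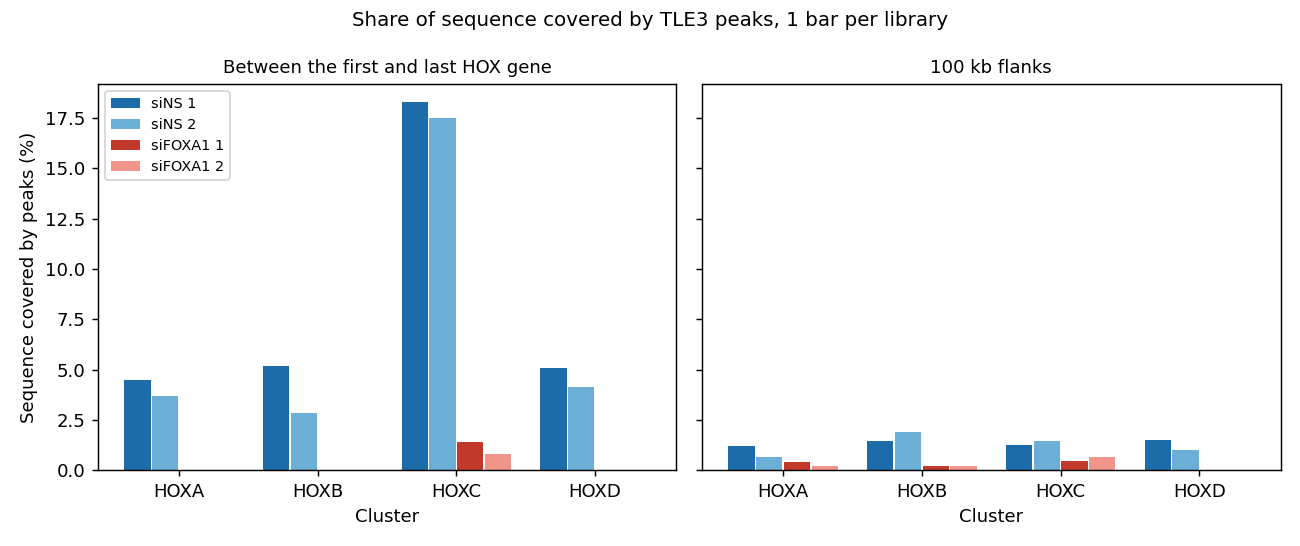
Bars give the percentage of sequence covered by the peaks of each library, inside each cluster (left) and in its 100 kb flanks (right). HOXC stands at 18.3 and 17.5% in the siNS libraries, and the flanks stay at or below 1.9% in every library.

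HOXC held 3 broad siNS TLE3 regions. The widest covered 3673 bp over the lower-coordinate end of HOXC10 and the antisense transcript HOXC-AS3 (chromosome 12, 53983437 to 53987109). This region ranked 84th by width of 24961 siNS consensus regions. Its best peak scored 85.7 in siNS 1, in the top 4.94% of that list, and 40.5 in siNS 2, in the top 14.5%. The next covered 3580 bp over the lower-coordinate end of HOXC11 and the overlapping lncRNA gene HOTAIR (53972340 to 53975919, rank 101), with scores of 43.3 and 32.8. HOXC4 and HOXC5 are on the plus strand, where a gene starts at its lower coordinate. No start of HOXC10 or HOXC11 was tabulated. The third covered 2964 bp at HOXC-AS2, 3131 bp from HOXC9 (53994067 to 53997030, rank 261), with scores of 47.3 and 27.8. None of these 3 regions overlapped a siFOXA1 peak. They are the HOX regions of 2 kb or more, 3 of 49 (6.12%) against 5.29% of all siNS consensus regions.

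The posterior HOXC genes apart from HOXC12 had peaks in both siNS libraries. HOXC10 had 3 peaks over 2732 bp in siNS 1 and 6 peaks over 4083 bp in siNS 2, and none in either siFOXA1 library. HOXC11 had 4 peaks in each siNS library, over 3542 and 3608 bp, and none within 1 kb in siFOXA1; a second region, 562 bp from it (53978205 to 53979314), overlapped a siFOXA1 1 peak farther out. HOXC13, a gene of hair and nail formation, had 1 peak over 1745 bp in siNS 1 and 4 over 2122 bp in siNS 2. It also had 1 peak in each siFOXA1 library, of 377 and 292 bp, which lay beyond the upper end of the gene. The siNS consensus region lay at its lower end, over HOXC13-AS (53938263 to 53940144), and had no siFOXA1 peak. HOXC9 had 3 peaks in each siNS library, over 1824 and 1359 bp, 1 in siFOXA1 1 (303 bp) and none in siFOXA1 2.

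The HOXC window also held 2 of the 3 regions with a peak in all 4 libraries, 1 of them in the flank. The other lay in HOXC5 and the overlapping HOXC4 (chromosome 12, 54033176 to 54034421) and covered the microRNA gene MIR615 (54033950 to 54034045). It scored 60.2 in siNS 1, in the top 8.98% of the list, and 25.8 in siNS 2, in the top 24.4%. In siFOXA1 1 and 2 it scored 13.7 and 25.0, in the top 31.7 and 15.7%. The siNS peaks covered the miRNA hairpin, and the narrower siFOXA1 peaks ended before it. The 2 mature miRNAs of this gene are shown with the seed, bases 2 to 8, in capitals.
hsa-miR-615-5p: gGGGGUCCccggugcucggauc
hsa-miR-615-3p: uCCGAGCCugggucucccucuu

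Over the whole overlapping stretch, HOXC4 had 7 peaks over 4450 bp in siNS 1, 5 over 3423 bp in siNS 2, 2 over 639 bp in siFOXA1 1 and 2 over 653 bp in siFOXA1 2. Its 4 siNS consensus regions include 1 at the shared start (54016460 to 54017338, scores 32.9 and 16.5) and 1 just inside it (54017354 to 54018576, scores 22.1 and 23.3), and neither had a siFOXA1 peak. HOXC5 had 5, 4, 2 and 2 peaks in the same order of libraries. HOXC6, whose annotated stretch ends before MIR615, had 4, 3, 1 and 1. The siFOXA1 libraries thus covered less of these genes than both siNS libraries, at 2 places away from the shared start. HOXC8 and HOXC12 had no peak in any library.

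The other miRNA genes of the clusters were mostly free of peaks. MIR196A2 in HOXC was overlapped by a peak of siNS 1 alone and MIR7704 in HOXD, at HOXD1, by a peak of siNS 1 alone within a siNS consensus region. MIR10A in HOXB, MIR10B in HOXD, MIR196A1 and MIR3185 in HOXB and MIR196B in HOXA had no peak in any library.

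The siFOXA1 libraries shared 6 consensus regions in the windows, 4 of them in HOXC. Besides the HOXC5 region, 1 lay at 54025954 to 54026417 inside the shared span of HOXC4, HOXC5 and HOXC6, with a peak of siNS 2 (score 16.4) but not of siNS 1, and siFOXA1 scores of 11.4 and 4.69. Another lay 304 bp from HOXC13 (53946848 to 53947453), again with a siNS 2 peak alone (6.52) and siFOXA1 scores of 12.8 and 9.16. The last of HOXC lay in the flank, 92529 bp from HOXC13 (53844822 to 53846302), with siNS scores of 35.7 and 62.9 and siFOXA1 scores of 10.5 and 13.1. In HOXA, 1 region 6721 bp from EVX1, a homeobox gene beside HOXA13, had scores of 8.53 and 14.9 and no siNS peak (chromosome 7, 27254551 to 27255134), and the HOXB one is described with that cluster. So 5 of the 6 overlapped a siNS peak and 1 did not, against 39.9% without a siNS peak over all 8218 siFOXA1 consensus regions.

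The strongest TLE3 region of all 4 windows lay in the HOXB flank, 5756 bp from HOXB1, a gene of the hindbrain, inside the lncRNA gene LOC105371808 (chromosome 17, 48522004 to 48522770). Its score was 400.9 in siNS 1, place 58 of 45105 peaks, and 324.8 in siNS 2, place 128 of 46586. It was also the only HOXB region with siFOXA1 peaks, at 17.2 in siFOXA1 1 (place 2864 of 12249) and 14.6 in siFOXA1 2 (place 4498 of 13754). Scores are the authors' values and were used only within a list, so they give no change between lists. The second by rank lay 35195 bp from HOXB1 (48492178 to 48493331), with 109.0 and 86.7 in siNS and no siFOXA1 peak. HOXB1 itself had 1 peak of siNS 1, of 248 bp, and none in the other libraries.

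Several HOXB genes had siNS peaks within 1 kb, and none had a siFOXA1 peak there. HOXB9 had 1 peak in each siNS library, of 713 and 816 bp, with scores of 31.9 and 26.1. Their merged region (48625484 to 48626427) covered the higher-coordinate end of its annotated span. HOXB1, the HOXB gene with a tabulated promoter, is on the minus strand, where a gene starts at its higher coordinate. HOXB2, a hindbrain gene, had 3 peaks in siNS 1 and 1 in siNS 2. HOXB3 had 7 and 5 peaks along its 41372 bp. HOXB4, nested in it, had 2 in each, which are also counted among those of HOXB3. The widest HOXB region (48584884 to 48586116, 1233 bp) lay in HOXB3. HOXB13, a gene of the prostate, had 2 siNS 1 peaks within 1 kb and no siNS 2 peak, and it counted only through a region at its neighbour PRAC2 (48723393 to 48723813). HOXB6, of the middle of the cluster, had 3 peaks over 1663 bp in siNS 1 and 1 of 320 bp in siNS 2, and HOXB5 had 1 of 327 bp in siNS 1 alone. HOXB7 and HOXB8 had none. HOXB had 28 peaks in siNS 1 and 19 in siNS 2, the largest difference between replicates of the 4 windows.

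In HOXA the gene with most TLE3 was HOXA10, a posterior gene of the uterus and limb. It had 4 peaks over 2652 bp in siNS 1 and 4 over 2479 bp in siNS 2, with best scores of 20.7 and 35.3. Its 3 consensus regions lay between 27171297 and 27175634, and 1 of the siNS 2 peaks lay outside them, at 27179739 to 27180064. HOXA11 had 1 weak peak in each, with scores of 5.68 and 3.51. HOXA13 had 1 peak of 592 bp in siNS 1 (score 14.3) and none in siNS 2. HOXA3 had 1 peak in each siNS library, with scores of 3.99 and 7.84, at different places, and HOXA7 had 1 of siNS 2 alone, in the top 99.8% of that list and so among its weakest. The strongest region of the window lay 6446 bp from EVX1 (27235118 to 27236356), with scores of 54.3 and 44.3. None of these had a siFOXA1 peak.

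In HOXD no siFOXA1 library had a peak, in the cluster or in its flanks, against 16 peaks of siNS 1 and 11 of siNS 2. The strongest region of the cluster lay in HOXD11 (chromosome 2, 176113914 to 176114476) and scored 42.1 for siNS 1 and 70.4 for siNS 2, in the top 14.6 and 6.64% of the lists. HOXD8 had a peak of 1428 bp in siNS 1 and of 405 bp in siNS 2, in the widest region of the window (1456 bp), and HOXD1 peaks of 665 and 648 bp. HOXD13, a gene of digit formation, had 1 weak peak of siNS 1 (score 6.38) within 1 kb. HOXD9 had 1 weak peak of siNS 1 alone (4.54), HOXD3 1 of siNS 2 alone (4.55), and HOXD10 1 of each at different places (6.46 and 9.97). In the flanks, regions lay at the neighbouring genes LNPK (scores 45.9 and 46.9) and MTX2 (28.3 and 10.2).

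**Figure D4:**
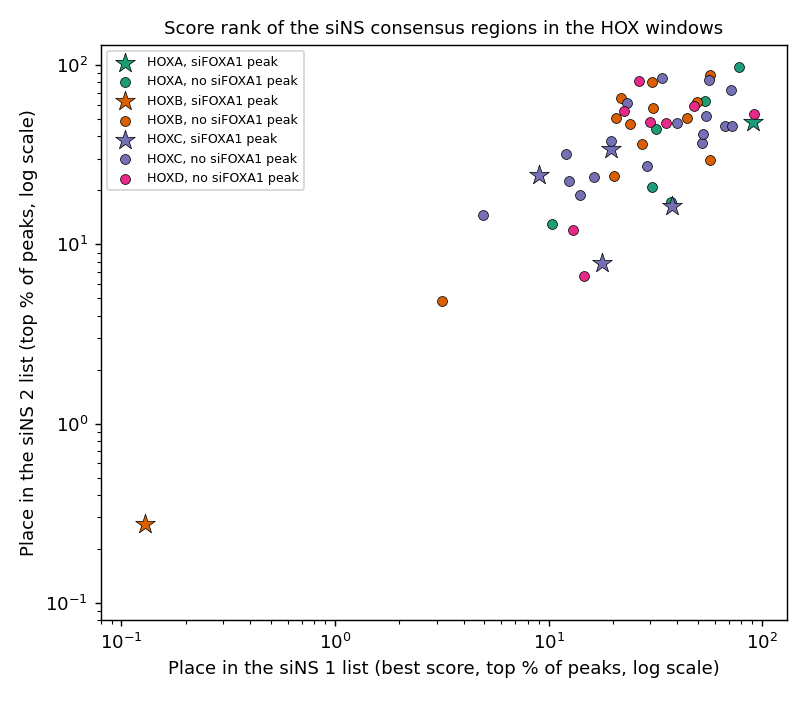
Each point is 1 of the 49 siNS consensus regions in the HOX windows, placed by the rank of its best peak in the siNS 1 list (x) and the siNS 2 list (y), as top percent of the list on log axes; stars overlap a siFOXA1 peak. The HOXB region at 0.129 and 0.275% stands apart, and 4 of the 6 stars belong to HOXC.

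Of the 49 siNS consensus regions in the windows, 6 overlapped a siFOXA1 peak. This is 12.2% (exact Clopper-Pearson 95% interval 4.63 to 24.8%), against 16.9% of all 24961 siNS consensus regions, a value inside the interval. The interval covers counting error over regions and not variation between cultures. All 6 overlapped a peak of siFOXA1 1 and 3 of them a peak of siFOXA1 2, and the share was 6.12% without siFOXA1 1 (13.9% of all regions) and 5.43% without siNS 2 (9.66%). The 3 found in siFOXA1 1 alone lay at HOXC9 (54003332 to 54003968), beside HOXC11 (53978205 to 53979314) and in the HOXA flank, 12079 bp from EVX1 (27259909 to 27260574). By window it was 4 of 21 in HOXC (19.0%), 1 of 13 in HOXB, 1 of 7 in HOXA and 0 of 8 in HOXD (interval up to 36.9%). Between the first and last genes of HOXA, HOXB and HOXD it was 0 of 19 (interval up to 17.6%, which includes 16.9%). In the keratin windows 20 of 68 were kept (29.4%, interval 19.0 to 41.7%), and the difference from the HOX windows was not tested because regions are not replicates.

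In width the HOX regions were close to other siNS regions, and in score somewhat lower. The median place was the top 30.4% of siNS 1 and the top 45.5% of siNS 2, against 28.2 and 34.6% over all siNS consensus regions, and the median width was 774 bp against 831 bp. Of the 49, 3 (6.12%) were in the top 10% by mean rank, against 13.6%. The start or end of a protein-coding gene was within 1 kb of 21 (42.9%), against 42.7%, and 3 of these 21 were kept, against 6.25%. The 6 kept regions had a median mean rank in the top 21.8%, and the 43 others in the top 42.4%. At least 1 bp of an annotated gene that is not protein-coding was overlapped by 26 of the 49, among them HOTAIR, HOXC-AS2, HOXC-AS3 and HAGLR.

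Replicates overlapped in the windows at least as far as elsewhere for the siNS libraries. Of the 92 HOX peaks of siNS 1, 60.9% overlapped a siNS 2 peak, against 58.0% of all siNS 1 peaks, and in reverse 72.4% against 58.9%. Of 11 peaks of siFOXA1 1, 7 overlapped siFOXA1 2 (63.6%, against 67.6%), and all 6 of siFOXA1 2 overlapped siFOXA1 1. Of the 107 merged regions, 43 (40.2%) were found in both siNS libraries and neither siFOXA1 library, against 28.7% of all regions. All 4 libraries shared 3 (2.8%, against 3.6%), both siFOXA1 libraries alone had 1 (0.935%, against 4.54%), and 5 were found in 3 libraries. The other 55 were in a single library, 36 of them in siNS 1.

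Genes of the Polycomb and trithorax groups, which keep HOX genes silent or active, had a higher share with siNS TLE3 regions than the HOX genes, and are also far longer. All 26 Polycomb genes had a siNS consensus region at the gene, led by JARID2, KDM2B and PHC2 with 5 each, and 4 of them a siFOXA1 one (15.4%). Of 13 trithorax-group and H3K27 demethylase genes 12 had a siNS one (92.3%), with 5 at KDM6B and 2 each at DPY30 and KMT2A. A siFOXA1 one was found at 1 of the 13 (7.69%). Over all protein-coding genes the shares were 63.5% for siNS and 12.9% for siFOXA1, and no share was taken for genes of like length. The median lengths of these 2 lists were 38933.5 and 35837 bp, against 3785.5 bp for HOX genes.

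The lists of shorter genes had lower shares than these 2. Of 30 other clustered homeobox genes (median length 5530 bp), 12 had a siNS consensus region (40.0%) and none a siFOXA1 one, with 2 regions each at CDX2, DLX3 and DLX4. Of 55 keratin genes (6433 bp), 10 had a siNS one (18.2%) and 3 a siFOXA1 one (5.45%), with 8 at KRT7, 6 at KRT8 and 3 at KRT86. These stand beside 47.4 and 10.5% for HOX genes and 63.5 and 12.9% for all protein-coding genes, as counts with no test.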

How the data were processed

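Each ChIP library has 1 peak list, with 5 columns and no header. Its last column is a score per peak, given by the authors and used as deposited; the sources used here do not define it. The submitters' processing notes name hg38 as build and MACS2, SAMtools, Trim Galore and BWA 0.7.5a as tools; settings and the use of the 2 inputs, which are labelled MDA-MB-454 and were not analysed here, are not given. Mitochondrial peaks (3 to 9 per list) were left out, and positions are 1-based. siFOXA1 2 follows its title, since its list carries another number.

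Peaks that share 1 bp were merged. Assignment is to the nearest protein-coding gene of RefSeq (GRCh38.p14) within 100 kb and shows no regulation; the read-through locus of HOXA10 and HOXA9 was not used for it. Sequences are from RefSeq tables of that build. No table gave exons, so exons and introns were not told apart. For group means an exact permutation test, two-sided, was used; counts over genes or regions have no test. The members and lists were chosen with earlier results of these data known. Named are all members, all siFOXA1 consensus regions, the 10 siNS regions of best mean rank, the widest per cluster and the 3 leading genes of each list described; the list of HOX cofactors is not reported here; regions at described genes outside this were named after their values were seen. Alternatives were a score threshold, equal lists, larger overlap, widened peaks, other window and gene distances, the replicate block and leaving out each library. The code was tested on simulated peaks and against bedtools 2.31.1. Python 3.11.15, numpy 2.4.6, scipy 1.17.1 and matplotlib 3.10.9 were used.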

Additional observations from a re-analysis of the deposited data

How the results depend on the processing

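The difference between siNS and siFOXA1 in peaks, covered sequence and list share of the HOX windows kept its direction under every alternative run, and 2 against 2 libraries cannot give a p under 0.333. Leaving out each library gave differences of 67.5 to 83.5 peaks, 40.8 to 49.0 kb and 0.0938 to 0.14 percentage points. Pairing libraries by replicate number (the replicate block) gave the same differences of 75.5 peaks, 44.9 kb and 0.117 points with p = 0.5 in an exact permutation within pairs, the smallest that 2 pairs allow; the number is only a number in the labels.

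The 49 siNS consensus regions were 25 without peaks under their list's median score, 12 with lists of equal length and 28 without HOXC, a setting added after the data were seen. They were 76 without siNS 1 and 92 without siNS 2, when a peak of the remaining library suffices, and 49 without either siFOXA1 library. The share that overlaps a siFOXA1 peak was 25.0% with lists of equal length (3 of 12, against 32.3% of all regions). Without each library in turn it ranged from 5.43 to 12.2%. HOX genes with a siNS consensus region numbered 6 with lists of equal length and 29 within 5 kb (76.3%, against 66.8% of all genes), and 18 to 25 without each library. HOX genes with a siFOXA1 one numbered 2 at or above the median score and 4 to 5 without each library. Over the other alternatives the differences ran from 10 to 75.5 peaks, 15.6 to 77.7 kb and 0.0816 to 0.119 points, lowest with lists of equal length. Unknown depth, 2 libraries per group and undefined scores limit all values.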
